A study of Mus musculus with 20 samples.

Results

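The 10 genes described here encode isoforms of the glycolytic enzymes hexokinase (Hk1, Hk2), phosphofructokinase (Pfkl, Pfkm, Pfkp), aldolase (Aldoa), pyruvate kinase (Pkm, Pklr) and lactate dehydrogenase (Ldha, Ldhb). They were taken by symbol from a table of 55822 genes measured by poly(A) RNA sequencing of whole mouse kidney. All 10 symbols were found, on 11 rows, because a second row also named Aldoa held 0.992 to 6.93 estimated counts per library and was not tested. The animals were wild-type male C57BL/6J mice, an inbred strain, 8 weeks old, that received 6 daily doses and were left undosed for a day before the kidneys were taken on day 7. The 5 controls received phosphate-buffered saline (PBS), and 5 mice received 1 mg per day of puberulic acid, a tropolone that certain Penicillium species produce. The labels differ on the route, which is oral in the design text and either stomach tube or injection into the peritoneum in the protocol, and they do not say which each animal had. The study also holds 10 samples of mice given a normal or a toxic lot of the supplement Choleste-Help, which are not analysed here because their columns could not be matched to a lot. The labels do not state that each sample is a different mouse, so the samples, called animals here, may share a source and p-values measure the spread between them.

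Glycolysis splits glucose into pyruvate, and lactate dehydrogenase interconverts pyruvate and lactate. Several steps are served by more than 1 gene, and tissues differ in which they use: Hk1 is widely expressed, Hk2 is typical of muscle, fat and growing cells, Pfkl, Pfkm and Pfkp are named for liver, muscle and platelet, and Pklr serves liver and red blood cells. In the healthy kidney the proximal tubule makes glucose more than it burns it, while more distal segments and the medulla carry out most glycolysis. Since different genes of a family were measured in the same library, the share of a family's counts held by a gene does not depend on how libraries are scaled.

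Upstream sequences are shown for Hk2 and Pfkp, the members with the largest fitted increases, and for Ldha, with the smallest fitted change of the 10 with trimmed mean of M-values (TMM) scaling, though not with scaling to total counts. RefSeq windows of 250 bases before a transcription start (build GRCm38.p6) were found for all 10 members, 19 windows in all. Each is written 5′ to 3′ on the gene's strand, ending at the base before the start. Capitals mark ACGTG or its reverse complement, a form of the core of the element bound by hypoxia-inducible factors. Another form, GCGTG, was not searched and is not marked. Hk2 and Pfkp have 1 window each, and the Ldha window is the first of 2.
Hk2 (chr6:82774455-82774704, minus strand): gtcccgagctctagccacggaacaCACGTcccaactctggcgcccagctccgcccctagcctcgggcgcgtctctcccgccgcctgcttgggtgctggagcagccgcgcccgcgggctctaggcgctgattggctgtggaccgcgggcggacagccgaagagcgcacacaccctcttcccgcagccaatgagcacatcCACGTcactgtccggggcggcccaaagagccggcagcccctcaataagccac
Pfkp (chr13:6648772-6649021, minus strand): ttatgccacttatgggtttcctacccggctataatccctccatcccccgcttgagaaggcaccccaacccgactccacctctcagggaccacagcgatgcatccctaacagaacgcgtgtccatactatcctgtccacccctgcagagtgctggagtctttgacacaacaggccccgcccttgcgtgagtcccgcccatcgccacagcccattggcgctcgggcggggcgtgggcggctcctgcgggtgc
Ldha (chr7:46845554-46845803, plus strand): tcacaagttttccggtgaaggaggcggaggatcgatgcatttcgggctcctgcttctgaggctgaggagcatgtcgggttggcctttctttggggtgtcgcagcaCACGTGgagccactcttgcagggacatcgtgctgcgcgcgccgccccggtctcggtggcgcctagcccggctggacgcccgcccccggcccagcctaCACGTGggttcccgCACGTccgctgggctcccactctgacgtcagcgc
ACGTG, called the core below, was searched on both strands and occurs in 16.6% of all 32851 windows. It overlaps the E-box CACGTG, a motif bound by Myc and by the carbohydrate response factor ChREBP, which holds the core on both strands and occurs in 6.0% of windows. Among member windows 7 of 19 held the core, belonging to 5 genes, and 2 held the E-box. Windows of a gene can overlap, and 2 of the 7 are overlapping Aldoa windows that share 1 site, so this count is not directly comparable with the share of all windows. The Ldha window has 5 core matches, from 2 E-boxes and a further site, and Hk2 has 2 matches and no E-box. The Pfkp window has no ACGTG match but holds the form GCGTG, which was not counted. A match in these letters is a description of the window and not a measured binding site.

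The libraries held 18409877 to 24705587 estimated counts. Levels are given as CPM, counts scaled to a common library total after TMM normalization, unless CPM per kilobase of transcript is stated, and fold changes compare puberulic acid with control. The kidney label fitted its markers in the controls, where 10 proximal tubule genes summed to 9570 to 14508 CPM, and this sum was 449 to 1299 CPM with puberulic acid, with all 10 genes called lower. All 6 genes of the injured tubule list were called higher (575 to 1007 CPM in controls and 13287 to 21522 CPM with puberulic acid), as were 6 of 8 leukocyte genes (94.6 to 223.3 and 210.8 to 736.7 CPM) and 5 of 5 fibroblast genes (109.0 to 178.9 and 455.7 to 1666 CPM). Of 6 red blood cell genes, 5 were tested and all 5 were called lower (991 to 3238 and 27.8 to 265.2 CPM). Of 8 distal tubule and collecting duct genes, 7 were called lower (1345 to 1907.5 and 507.7 to 1141 CPM, 5 of 8 with total-count scaling), as were 3 of 4 intercalated cell genes (197 to 251.2 and 97.7 to 180.6 CPM, 1 lower and 1 higher with total-count scaling). Of 4 loop of Henle genes, 2 were called lower (2773.8 to 5115.8 and 2964.6 to 5584.8 CPM, overlapping), while 2 were called higher and 1 lower with total-count scaling. In bulk tissue, fewer cells of a type and less RNA per cell cannot be told apart, and the part of these cell types in the values below was not tested. Control replicate 1 had the lowest proximal tubule sum of the controls (9570 CPM, against 12901 to 14508 CPM in the others). Puberulic acid replicate 1 had the highest proximal tubule sum (1299 CPM) and the lowest injured tubule sum (13287 CPM) of its group, and values without it are given where they end a call or move a described value by over 1.5 times.

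All 10 members were called by edgeR's quasi-likelihood test with a Benjamini-Hochberg adjusted p-value under 0.05, where 65.3% of the 16266 genes tested were called. Of the members 5 were higher (34.2% of all genes) and 5 lower (31.1% of all genes), with a median log2 fold change of 0.03 against 0.05 over all genes. For 6 of the 10 members, and for 50.1% of all genes, no treated CPM value fell within the control range or the reverse. With libraries scaled to their total counts, 7 members were called (72.0% of all genes), 6 higher (56.4% of all genes) and 1 lower (15.5% of all genes), and the median gene stood at 0.56. Under both scalings Hk1, Hk2, Pfkp, Pkm and Pklr were called higher and Pfkm lower. Aldoa, Ldha and Ldhb changed direction with the scaling.

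**Figure D1:**
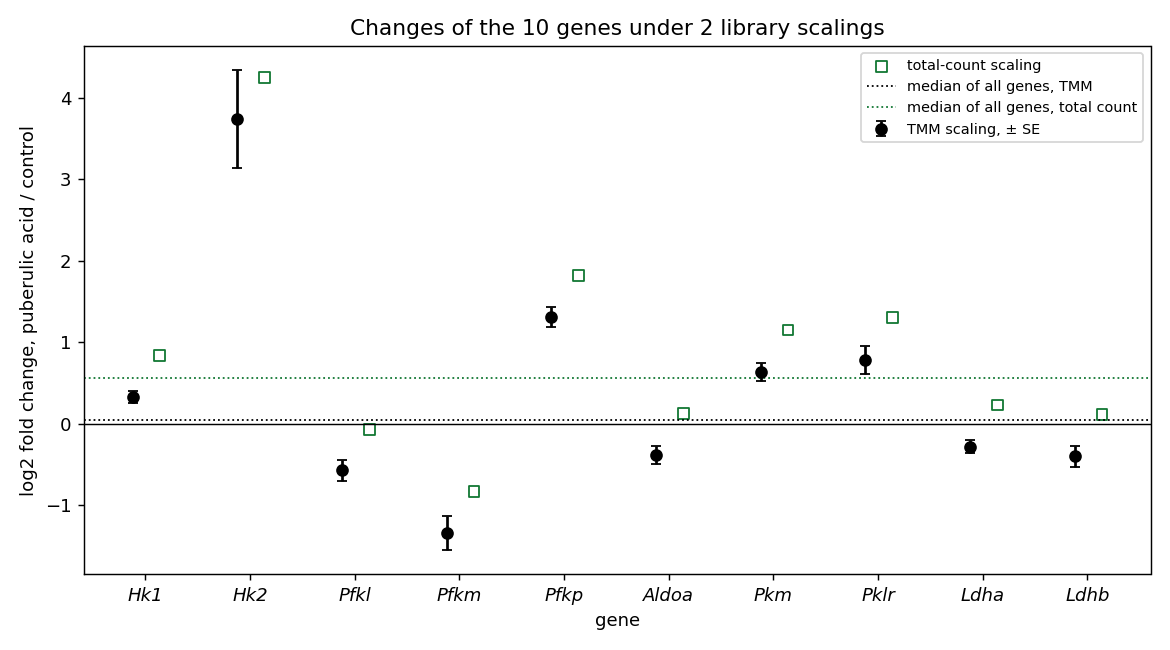
Log2 fold change of each of the 10 genes (x axis) for puberulic acid over control (y axis), with TMM scaling (filled points, whiskers are standard errors) and with total-count scaling (open squares), beside the median of all genes tested under each scaling (dotted lines, 0.05 and 0.56). Hk2, Pfkp, Pklr, Pkm and Hk1 lie above 0 and Pfkm below 0 under both scalings, while Aldoa, Ldha and Ldhb cross 0.

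Hexokinase traps glucose in the cell as glucose 6-phosphate, and here the minor isoform rose. Hk2 was at 0.331, 0.437, 0.105, 3.56 and 1.24 CPM in control replicates 1 to 5 and at 9.81, 16.7, 17.0, 16.9 and 15.1 CPM in puberulic acid replicates 1 to 5. The groups did not overlap, although the controls themselves ranged from 1.648 to 57.07 estimated counts, and replicate 3 lay under the 3 counts taken as the floor of detection. The fitted change was a log2 fold change of 3.74 ± 0.60 (SE), or 13.4-fold (edgeR adjusted p = 0.000164). Without control replicate 4, the highest control, the log2 fold change was 4.82 (edgeR adjusted p = 5.78e-06). That animal also had the highest leukocyte sum of the controls (223.3 CPM, against 94.6 to 157 in the others). Control replicate 1 had the next highest sum (157 CPM) with Hk2 at 0.331 CPM. Control replicate 5 had the next highest Hk2 (1.24 CPM) with a sum of 109.5 CPM. The part of leukocytes in these Hk2 levels was not tested. The skeletal muscle list, which marks a tissue rich in Hk2, summed to 0.32 to 1.55 CPM in controls and 0.498 to 1.22 CPM with puberulic acid, and its member Myh4 was at 0 in every library. Fat markers summed to 0.246 to 0.655 CPM in controls, 69.3 CPM in puberulic acid replicate 3 and 2.73 to 5.86 CPM in the other 4 treated animals. The part of muscle or fat in the Hk2 change was not tested.

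Hk1 was the more abundant gene throughout and rose less. Its control values were 106.2, 103.7, 104.4, 114.6 and 103.1 CPM, and its values with puberulic acid were 136.9, 144.7, 136.9, 130.1 and 121.7 CPM. Every treated animal lay above every control, with a log2 fold change of 0.33 ± 0.07 (SE, edgeR adjusted p = 0.00163). An antisense gene, Hk1os, overlaps it and held 8.07 to 18.5 estimated counts per control library and 27.5 to 56.5 per treated library, against 1588.4 or more for Hk1 in any library. Whether the counting used strand is not given in the sources used here.

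As a share of Hk1 and Hk2 counts, Hk2 made up 0.31%, 0.419%, 0.1%, 3.01% and 1.19% in the controls and 6.69%, 10.3%, 11.0%, 11.5% and 11.0% with puberulic acid. The 95% Wilson interval, which covers counting error only, was 0.0334% to 0.443% in control replicate 3, the lowest share, and 2.33% to 3.88% in control replicate 4, the highest. The mean share went from 1.01% ± 1.19 to 10.1% ± 1.96 (SD, n = 5 per group), a difference of 9.11 percentage points (exact two-sided permutation p = 0.00794, the smallest that 252 assignments of 5 against 5 allow). Inverting the same test gave an interval of 6.59 to 11.0 points. Per kilobase of transcript the share went from 0.785% to 8.04%, so that Hk1 remained the main hexokinase transcript in every animal.

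**Figure D2:**
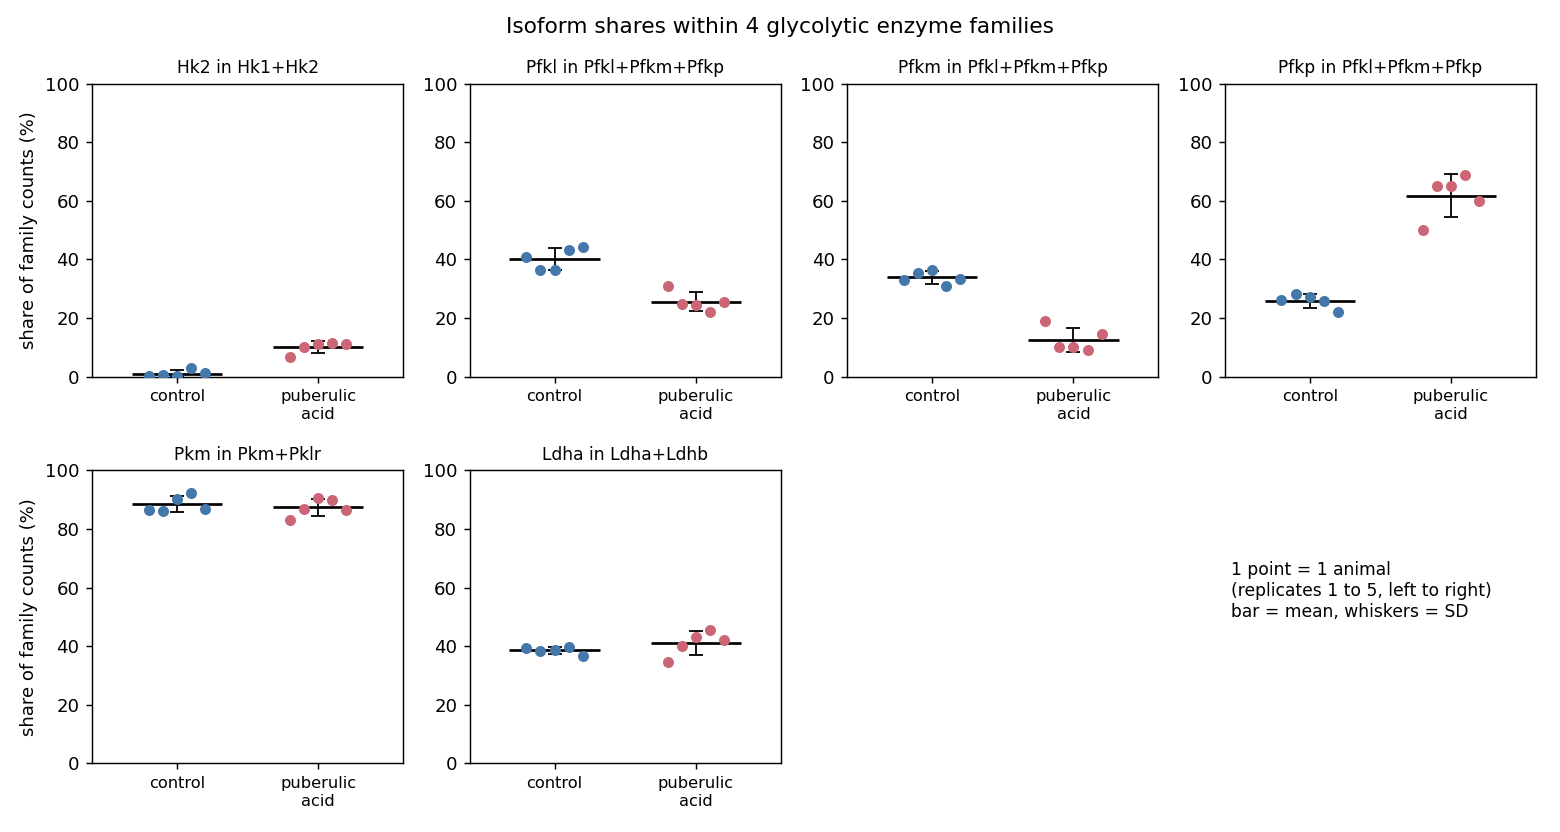
Share of each named isoform in the counts of its enzyme family (y axis, percent) in the 5 control and 5 puberulic acid animals, 1 point per animal in replicate order, with the mean (bar) and SD (whiskers). The groups do not overlap for Hk2, Pfkl, Pfkm and Pfkp, and they overlap for Pkm (86.3% to 92.4% and 83.1% to 90.5%) and Ldha (36.8% to 39.7% and 34.5% to 45.4%).

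Phosphofructokinase catalyses the committed step of glycolysis as a tetramer that can mix its 3 subunit types, and here the leading subunit transcript changed. Pfkp was at 35.0, 48.9, 40.2, 42.7 and 33.1 CPM in controls and at 88.4, 103.7, 109.3, 107.2 and 89.0 CPM with puberulic acid. The groups stood well apart, at a log2 fold change of 1.31 ± 0.12 (SE), or 2.49-fold (edgeR adjusted p = 1.58e-06). Pfkm, the muscle type, was at 43.8, 61.6, 54.2, 51.7 and 50.0 CPM in controls and at 33.6, 16.3, 17.1, 14.3 and 21.6 CPM with puberulic acid. Replicate 1 was the highest of the treated animals and still lay below all controls, and the log2 fold change was -1.34 ± 0.21 (SE, edgeR adjusted p = 0.000131), or 2.53-fold lower. Pfkl, the liver type, was at 54.0, 63.3, 54.0, 71.6 and 66.4 CPM in controls and at 54.9, 39.3, 41.3, 34.3 and 38.0 CPM with puberulic acid. Its groups overlapped through replicate 1, its log2 fold change was -0.57 ± 0.13 (SE, edgeR adjusted p = 0.00219), and with total-count scaling it was -0.07 (edgeR adjusted p = 0.663).

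In the summed counts of the family, Pfkp held 26.3%, 28.1%, 27.1%, 25.7% and 22.1% in the controls and 50.0%, 65.1%, 65.2%, 68.8% and 59.8% with puberulic acid. The mean rose by 35.9 points, from 25.9% ± 2.28 to 61.8% ± 7.33 (SD, n = 5 per group, exact two-sided permutation p = 0.00794, the smallest possible, interval 27.7 to 42.9 points). Pfkm held 31.1% to 36.5% in the controls and 9.19% to 19.0% in the treated animals, a difference of -21.3 points (interval -26.2 to -16.4), and Pfkl held 36.4% to 44.4% and 22.0% to 31.0%, a difference of -14.6 points (interval -19.8 to -9.65). The exact two-sided permutation test gave p = 0.00794 for each, and since shares of a family sum to the whole, the 3 values are not independent. Per kilobase, the order of means in controls was Pfkm at 40.9% ± 2.35, Pfkl at 37.4% ± 3.56 and Pfkp at 21.7% ± 1.90, and with puberulic acid it was Pfkp at 57.1% ± 7.78, Pfkl at 26.2% ± 2.87 and Pfkm at 16.7% ± 5.06 (SD, n = 5 per group). The order of Pfkm and Pfkl in controls was not fixed. Pfkl led per kilobase in control replicates 4 (40.4% and 37.8%) and 5 (41.2% and 40.3%). By counts, the control means were 40.2% for Pfkl and 33.9% for Pfkm. The summed level of the 3 genes was 44.4 ± 4.62 CPM per kilobase in controls and 42.3 ± 3.41 with puberulic acid (SD, n = 5 per group), with overlapping ranges. With total-count scaling that sum was 37.2 ± 4.00 and 50.3 ± 3.54 CPM per kilobase, whereas the shares do not depend on the scaling.

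Aldolase splits fructose 1,6-bisphosphate. Aldoa encodes the form of muscle and most glycolytic cells, and it is described by its level alone. Aldoa was at 805.8, 1002.3, 1044.1, 1139.9 and 1230.4 CPM in controls and at 876.6, 778.9, 781.1, 832.0 and 747.4 CPM with puberulic acid. The groups overlapped only through control replicate 1. The log2 fold change of -0.38 ± 0.11 (SE, edgeR adjusted p = 0.0107) was -0.47 without that animal (edgeR adjusted p = 0.000958). With total-count scaling and all animals it became 0.13 (edgeR adjusted p = 0.319).

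Pyruvate kinase makes pyruvate and ATP in the last step of glycolysis, and both of its genes rose with no detected change in their proportion. Pkm was at 210.5, 242.2, 233.7, 300.3 and 277.1 CPM in controls and at 341.7, 389.1, 421.1, 434.2 and 379.9 CPM with puberulic acid. All treated animals lay above all controls, with a log2 fold change of 0.64 ± 0.11 (SE, edgeR adjusted p = 0.000294). The gene makes 2 enzyme forms by choice between a pair of exons, which counts per gene do not separate. Pklr was at 32.8, 38.5, 25.0, 24.8 and 42.7 CPM in controls and at 69.6, 59.4, 44.4, 48.6 and 60.0 CPM with puberulic acid. Here too the groups did not overlap, although control replicate 5 and treated replicate 3 were close, and the log2 fold change was 0.78 ± 0.17 (SE, edgeR adjusted p = 0.00171). Red blood cells carry Pklr, and their 6 genes summed to 991 to 3238 CPM in controls and 27.8 to 265.2 CPM with puberulic acid. Among treated animals, replicate 1 had the most Pklr and the highest red blood cell sum (265.2 CPM), and replicate 5 had the next highest Pklr and the lowest sum (27.8 CPM). The part of these cells in the Pklr values was not tested. RefSeq lists 2 starts for Pklr, known for an erythroid and a liver form, and the counts do not separate them.

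Pkm held 86.5%, 86.3%, 90.3%, 92.4% and 86.7% of the counts of both genes in controls and 83.1%, 86.8%, 90.5%, 89.9% and 86.4% with puberulic acid. The means of 88.4% ± 2.77 and 87.3% ± 3.00 (SD, n = 5 per group) differed by -1.12 points, less than the SD of either group (exact two-sided permutation p = 0.587). The interval of the difference, -5.61 to 3.65 points, leaves room for a shift of a few points in either direction. The difference moved by over 1.5 times without any of 5 single animals: it was -0.637 points without control replicate 3, -0.13 without control replicate 4, -0.0543 without puberulic acid replicate 1, -1.90 without replicate 3 and -1.77 without replicate 4 (exact two-sided permutation p from 0.373 to 0.944). The summed level of both genes was 115.2 ± 14.8 CPM per kilobase in controls and 181.1 ± 11.7 with puberulic acid (SD, n = 5 per group), and the ranges of 97.9 to 132.0 and 164.5 to 195.3 did not overlap.

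Lactate dehydrogenase is a tetramer of A and B subunits, of which Ldha is typical of glycolytic tissue and Ldhb of oxidative tissue. Ldha was at 652.0, 775.3, 761.1, 790.8 and 751.9 CPM in controls and at 627.4, 601.1, 610.0, 669.0 and 574.6 CPM with puberulic acid. The groups met only at control replicate 1 and treated replicate 4, and the direction followed the scaling: the log2 fold change was -0.28 ± 0.08 (SE, edgeR adjusted p = 0.0112) with TMM and 0.23 (edgeR adjusted p = 0.0209) with total counts. Ldhb was at 1002.2, 1236.9, 1201.3, 1202.4 and 1291.8 CPM in controls and at 1192.5, 900.0, 805.6, 803.0 and 793.0 CPM with puberulic acid. Replicate 1 lay among the controls and the other 4 treated animals below them, with a log2 fold change of -0.40 ± 0.13 (SE, edgeR adjusted p = 0.015) that became 0.11 (edgeR adjusted p = 0.459) with total counts.

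The share of Ldha in both genes was 39.4%, 38.5%, 38.8%, 39.7% and 36.8% in controls and 34.5%, 40.0%, 43.1%, 45.4% and 42.0% with puberulic acid. Of the treated animals, 4 lay above every control and replicate 1 lay below every control. The difference of 2.38 points, from 38.6% ± 1.13 to 41.0% ± 4.14 (SD, n = 5 per group), did not exceed the spread (exact two-sided permutation p = 0.262, interval -2.29 to 6.30 points). Without puberulic acid replicate 1 it was 4.01 points (exact two-sided permutation p = 0.00794). It was 1.27 points without puberulic acid replicate 4, the highest share (exact two-sided permutation p = 0.508). Each library held at least 28988 counts of the pair, and the 95% Wilson interval of replicate 1, which covers counting error only, was 34.1% to 34.9%.

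**Figure D3:**
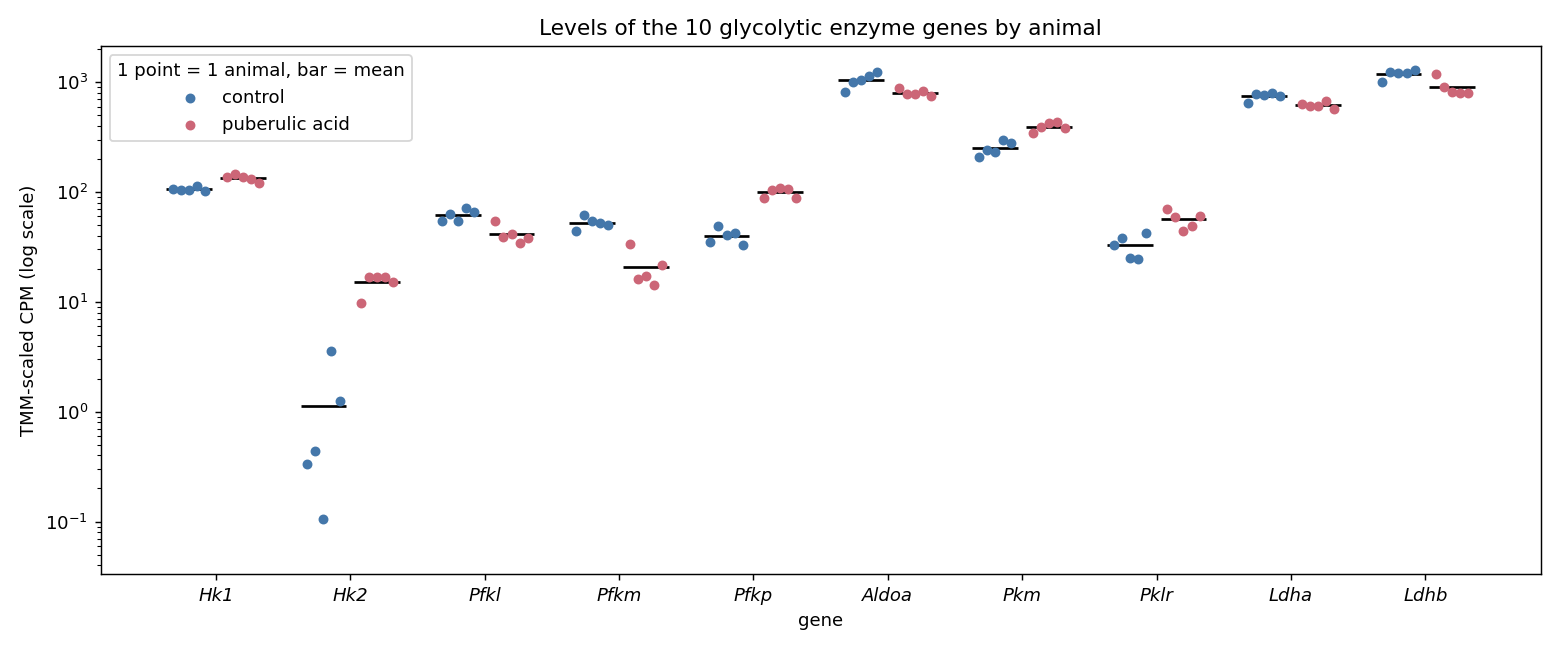
TMM-scaled CPM on a log axis (y) of the 10 genes (x) in each control and puberulic acid animal, with group means as bars. Hk2 spans 0.105 to 3.56 CPM in controls and 9.81 to 17.0 CPM with puberulic acid, while Hk1, Pkm, Pklr, Pfkp and Pfkm also separate and Pfkl, Aldoa, Ldha and Ldhb overlap.

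Across 4 families, 6 shares were computed and 4 had groups that did not overlap. In each of those 4, puberulic acid replicate 1 was the treated animal nearest the controls. Leaving it out moved the mean differences to 9.97 points for Hk2, 38.8 for Pfkp, -22.9 for Pfkm and -16.0 for Pfkl. On a scale of CPM per kilobase, the members kept a steep order in controls: Ldhb at 910.2 ± 84.1, Aldoa at 674.3 ± 103.3, Ldha at 411.1 ± 30.1, Pkm at 103.9 ± 14.7 and Hk1 at 24.9 ± 1.1 (SD, n = 5). Below them Pfkm at 18.2 ± 2.25 and Pfkl at 16.6 ± 2.08 were within their spread of each other, as were Pklr at 11.3 ± 2.75 and Pfkp at 9.65 ± 1.53, and Hk2 was last at 0.206 ± 0.258. With puberulic acid the upper 5 kept their ranks, and Pfkp (24.0 ± 2.44) and Pklr (19.4 ± 3.45) stood above Pfkl (11.1 ± 2.11) and Pfkm (7.16 ± 2.69), with Hk2 last at 2.74 ± 0.554 (SD, n = 5).

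The list counts that follow stand beside 34.2% of all genes called higher and 31.1% lower, or 56.4% and 15.5% with total-count scaling. Of the pathway enzymes that the member list leaves out, Gpi1, Tpi1, Gapdh, Pgk1, Pgam1 and Eno1, 3 were called lower and 3 were not called, where 65.3% of all genes were called, with a median log2 fold change of -0.36. Without control replicate 1 or puberulic acid replicate 1 the count lower was 4. Tpi1, which interconverts the 3-carbon sugars made by aldolase, changed by -0.75 ± 0.12, Gpi1 by -0.68 ± 0.11 and Gapdh by -0.56 ± 0.12 (log2, SE, edgeR adjusted p from 0.00015 to 0.0012). With total-count scaling none of these 3 was called and the other 3, Pgk1, Pgam1 and Eno1, were called higher, with a median of 0.15.

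Isozymes of the same steps that are not members gave 2 higher and 3 lower of 6 tested, with a median log2 fold change of -0.33 (2, 1 and 0.19 with total-count scaling). Hk3 lost its call in 6 of the 10 fits that left out 1 animal (without control replicate 2, 3 or 5, or puberulic acid replicate 3, 4 or 5), which leaves 1 higher. Hkdc1, a hexokinase relative, rose from 2.44 ± 0.835 to 10.0 ± 2.41 CPM (SD, n = 5 per group), a log2 fold change of 2.05 ± 0.25 (SE, edgeR adjusted p = 2.02e-05). Pgam2, the muscle phosphoglycerate mutase, fell from 76.8 ± 15.4 to 22.4 ± 6.59 CPM (SD, n = 5 per group), a log2 fold change of -1.77 ± 0.20 (SE, edgeR adjusted p = 1.03e-05). Eno3, the muscle enolase, went from 5.19 ± 0.899 to 2.77 ± 0.35 CPM (SD, n = 5 per group), at -0.91 ± 0.18 on the log2 scale (SE, edgeR adjusted p = 0.000717), and was not called with total-count scaling.

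Among 5 genes that set the level of the phosphofructokinase activator fructose 2,6-bisphosphate, 3 were called higher and none lower, and with total-count scaling all 5 were higher. Pfkfb1 went from 0.568 ± 0.144 to 2.93 ± 0.671 CPM and Tigar, a phosphatase of that sugar, from 7.91 ± 1.03 to 11.3 ± 0.279 CPM (SD, n = 5 per group), with log2 fold changes of 2.33 ± 0.27 and 0.52 ± 0.12 (SE, edgeR adjusted p = 1.11e-05 and 0.00201).

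Of 9 hexose and lactate transporters, 4 were called higher and 4 lower (5 and 2 with total-count scaling), a split near that of all genes. The count lower was 3 in 9 of the 10 fits that left out 1 animal, in which Slc16a7 (edgeR adjusted p = 0.0422 with all animals) lost its call. Slc16a3, the lactate exporter MCT4, was at 0.431, 0.392, 0.471, 0.63 and 0.136 CPM in controls and at 2.72, 7.45, 9.86, 9.09 and 7.09 CPM with puberulic acid. No treated animal came near the controls, and the log2 fold change was 4.14 ± 0.42 (SE, edgeR adjusted p = 3.96e-06). Slc5a2 (SGLT2) and Slc2a2 (GLUT2), which carry glucose through the proximal tubule cell, changed by -3.34 ± 0.41 and -2.26 ± 0.31 on the log2 scale (SE, edgeR adjusted p = 2.04e-05 and 4.40e-05).

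Genes of gluconeogenesis had the lowest median of the 7 lists, with 7 of 8 called lower, 1 higher and a median log2 fold change of -3.13 (6 lower, 1 higher and -2.63 with total-count scaling). Pck1, which makes phosphoenolpyruvate, fell from 2599 ± 452 to 134.5 ± 31.8 CPM (SD, n = 5 per group), a log2 fold change of -4.27 ± 0.20 (SE, edgeR adjusted p = 1.39e-08). G6pc, which releases free glucose, changed by -4.95 ± 0.59 (log2, SE, edgeR adjusted p = 1.64e-05), and by -5.92 without puberulic acid replicate 1, which had 29.8 CPM against 3.44 to 8.26 in the other treated animals. Pcx changed by -3.39 ± 0.27 (log2, SE, edgeR adjusted p = 6.09e-07).

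Among genes of pyruvate entry and oxidation, 10 of 13 were called lower and 2 higher, with a median log2 fold change of -0.83 (8 and 3 with total-count scaling). The pyruvate dehydrogenase kinases, which switch that complex off, went in different directions: Pdk2 changed by -2.43 ± 0.25 and Pdk4 by 2.10 ± 0.33 (log2, SE, edgeR adjusted p = 4.65e-06 and 0.000143). Pdk1 and Pdk3 changed less, by -0.48 ± 0.13 and -0.68 ± 0.12 (log2, SE, edgeR adjusted p = 0.00633 and 0.000436), and were not called with total-count scaling. The phosphatases, which switch the complex on, also differed: Pdp2 changed by -1.65 ± 0.15 and Pdp1 by 1.07 ± 0.18 (log2, SE, edgeR adjusted p = 2.14e-06 and 0.000234), and both kept their calls with total-count scaling.

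Of 7 transcription factors known to act on these genes, 1 was called higher and 5 lower, with a median log2 fold change of -0.64 (2, 3 and -0.13 with total-count scaling). Myc went from 4.96 ± 3.03 to 40.8 ± 8.09 CPM (SD, n = 5 per group), a log2 fold change of 3.03 ± 0.33 (SE, edgeR adjusted p = 7.45e-06). The proximal tubule factor Hnf4a and the mitochondrial coactivator Ppargc1a changed by -2.05 ± 0.14 and -1.19 ± 0.26 on the log2 scale (SE, edgeR adjusted p = 2.47e-07 and 0.00183). Transcripts of Hif1a, whose protein is controlled mainly by degradation, were at 85.9 ± 8.23 and 84.5 ± 4.23 CPM (SD, n = 5 per group), with a log2 fold change of -0.02 (edgeR adjusted p = 0.805), or 0.49 with total-count scaling, where it was called higher.

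**Figure D4:**
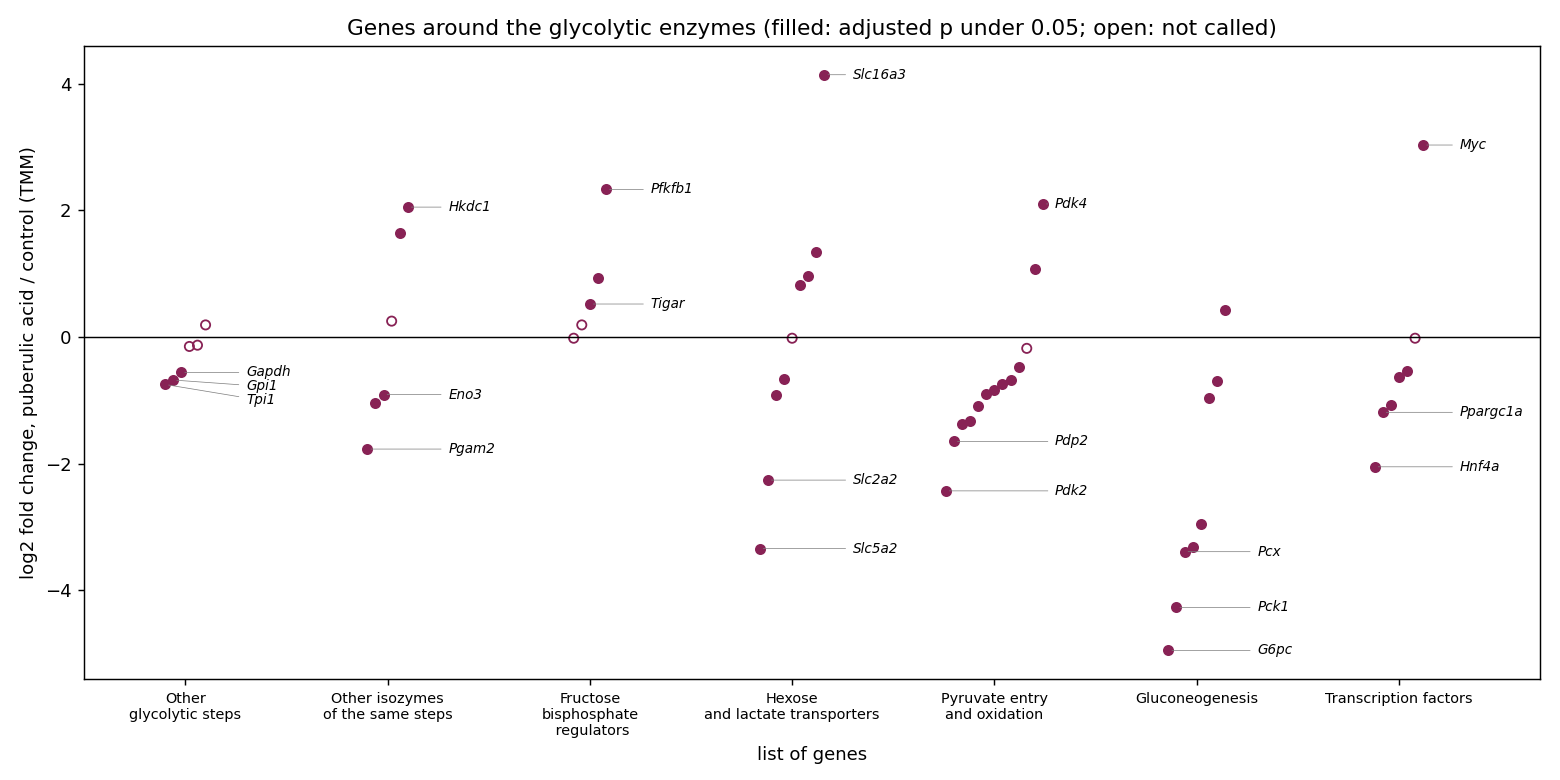
Log2 fold change (TMM scaling, y axis) of each tested gene in 7 lists around the 10 enzymes (x axis), filled where the adjusted p-value was under 0.05 and open where it was not. Gluconeogenesis lies lowest, with a median of -3.13, and the highest and lowest points are Slc16a3 at 4.14 and G6pc at -4.95.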

How the data were processed

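The authors deposited 1 table of estimated counts (fractional, not normalized, as its values show). Per the submitters' processing notes, fastp 0.22.0, FastQC 0.12.1, MultiQC 1.28, Salmon 1.10.3 and DESeq2 were used with build GRCm39, and the annotation release is not given in the sources used here. Per the labels' protocols, libraries were poly(A)-selected with a strand-specific kit. Columns named for control and puberulic acid were used, and the other 10 columns of per-sample values, which match no single lot, were not used in any step.

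Estimated counts were rounded for edgeR 4.0.16 (limma 3.58.1, R 4.3.3): filterByExpr, TMM factors, glmQLFit and glmQLFTest on the 10 samples, Benjamini-Hochberg adjustment over all 16266 genes tested, calls under 0.05. The script was tested on simulated data in which few genes changed, as many up as down. That setting differs from these data and cannot check the choice of scaling. Standard errors are the size of the log2 fold change over the square root of F. CPM and shares use unrounded counts, so a share computed from estimated counts keeps any error of the read assignment among similar genes. Shares were compared over animals with exact two-sided permutation tests, with no adjustment over the 6 shares, and intervals hold the shifts this test keeps at 95%. Wilson intervals use rounded counts and, like a floor of 3 counts, cover counting error only. Lengths are those of the longest coding transcript in GENCODE vM21 (GRCm38), not the authors' build, and a reference name table gave symbols for 51344 identifiers. numpy 2.4.6, scipy 1.17.1, pandas 2.3.3 and matplotlib 3.10.9 were used.

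Alternatives were RLE factors, total-count scaling, no filter, DESeq2 1.42.0, a replicate block, shares per length, log2 ratios with 1 count added, wider families, and leaving out each sample. Some planned results are not reported here, and the lists were shortened to match. The members and lists were chosen with earlier results of these data known. Every member is named, and in each of the 7 pathway lists the 3 called genes with the largest change, no overlap of the groups and a mean of at least 1 CPM. Hif1a, Pdk1, Pdk3, Pdp1, Pgk1, Pgam1, Eno1, Hk3, Slc16a7, Ldhc, Myh4 and Hk1os were chosen after their values were seen. Pairs of libraries of a group differed by more than sampling noise (chi-square per degree of freedom 12.7 to 89.7), so none was taken as 1 library deposited more than once; this does not show that they come from separate animals.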

Additional observations from a re-analysis of the deposited data

Results flagged for a closer look

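The 10 gene levels and 6 shares were searched in each group of 5 for an extreme animal standing apart by more than 0.71 of the full spread. Such an animal was found in 5 of 32 searches, where chance flags about 1 in 20 groups and values of related genes are not independent.

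Puberulic acid replicate 1 accounts for 3 of the 5. It had the lowest Hk2 level of its group, at 9.81 CPM (gap 0.736 of the range), and the lowest Hk2 share of the hexokinase counts, at 6.69% (gap 0.757). It also had the highest Ldhb of its group, at 1192.5 CPM (gap 0.732). Control replicate 4 had the highest Hk1 of the controls, at 114.6 CPM (gap 0.73), and control replicate 1 the lowest Ldha, at 652.0 CPM (gap 0.719).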

How the results depend on the processing

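Scaling decided the direction of 3 members: with total-count scaling the log2 fold change was 0.13 for Aldoa, 0.23 for Ldha and 0.11 for Ldhb, against -0.38, -0.28 and -0.40; the cause was not tested, and the median gene stood at 0.05 with TMM and 0.56 with total counts. Pfkl, Eno3, Gpi1, Tpi1 and Gapdh kept their direction and lost their call under that scaling. Under the other alternatives, all 140 values of the 10 members stayed called in the same direction, with a highest adjusted p of 0.0402. Of 74 share values, 73 stayed on the same side of the threshold, and the exception was Ldha without puberulic acid replicate 1, in a range of 1.27 to 4.01 points without single animals. For the 4 shares whose groups did not overlap, leaving out 1 animal could not end the call, so those values do not measure stability. Of 210 counts over the lists, 13 moved by over 1.5 times, 7 of them with total-count scaling and 6 through Hk3. Without single animals Slc16a7 also lost its call, gluconeogenesis had 6 lower in 5 of 10 fits, and the transcription factors had 4 lower in 2. Over all genes 10618 were called with RLE factors, 11705 with total counts, 11844 with no filter, 12163 by DESeq2, and 10104 to 11108 without single animals. The replicate numbers did not pair the animals (correlations of deviations -0.168 to 0.0199), and with the replicate block 10325 genes and 10 members were called. A permutation of shares within 5 pairs was not run, since it cannot go below p = 0.0625. Depth limits the control levels of low genes such as Hk2 (1.648 to 57.07 estimated counts), Slc16a3 and Pfkfb1.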

Other observations

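Hk3 and Hkdc1 were minor hexokinase genes in every animal. Hk3, a hexokinase typical of leukocytes, was at 2.2, 0.219, 0.46, 1.04 and 0.135 CPM in controls and at 1.43, 0.96, 3.71, 3.98 and 2.71 CPM with puberulic acid. Its groups overlapped, and its log2 fold change of 1.64 ± 0.64 (SE, edgeR adjusted p = 0.0403) was close to the threshold. Hkdc1 was at 2.71, 3.76, 1.86, 1.71 and 2.14 CPM in controls and at 6.89, 13.2, 11.2, 10.2 and 8.73 CPM with puberulic acid, with every treated animal above every control. With both genes added to the family, the Hk2 share rose by 8.33 points. The testis gene Ldhc had at most 0.9965 estimated counts in any library.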
